A study of Mus musculus with 16 samples.

Results

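H3K27ac, the acetylation of lysine 27 of histone H3, was profiled by ChIP-seq in 3T3-L1 preadipocytes before and after adipogenic induction, and the regions with the mark (islands) were compared between 0 h and 48 h. The 3T3-L1 line derives from mouse fibroblasts and turns into adipocytes when treated with hormones. The cells compared here were stably transduced with an empty retroviral vector, the control of the study for cells that overexpress the repressor subunit SETD5 from a retroviral promoter, and both times carry it. They were taken on day 0, when the cultures had been confluent for 2 days, or 48 h (day 2) after MDI, a mixture of insulin (1 µg/ml), dexamethasone (0.25 µM) and isobutylmethylxanthine (0.5 mM). Each time has 2 libraries, named replicates A and B, and these 4 libraries are 4 of the 16 in the series. The study describes A and B as biological replicates. The lists hold 33704 islands for 0 h A, 35460 for 0 h B, 31292 for 48 h A and 33131 for 48 h B, each called by the authors in its own library. No counts of reads are given within islands, so the depth behind a single island is unknown, and an absent island is one that did not pass the threshold of the caller.

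H3K27ac marks active promoters and enhancers, where acetyltransferases recruited by transcription factors deposit it and deacetylase complexes remove it. In adipogenesis, hormone-activated factors such as the glucocorticoid receptor, CREB, C/EBPβ and C/EBPδ act first, and they induce C/EBPα and PPARγ, which then activate the genes of lipid storage. Growth-arrested preadipocytes, in contrast, resemble fibroblasts, with active genes of actin stress fibres and extracellular matrix.

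A 48 h island was called gained where it shared not a single base with a 0 h island of the same letter, and a 0 h island was called lost by the mirror rule. A 48 h island was called lengthened where it was at least 2 times as long as, and at least 2000 bp longer than, all the 0 h islands of its letter under it, and shortened islands are the mirror. Islands gained or lost in both letters are those of replicate A that overlap an island of replicate B of the same time and share no base with either list of the other time. Lengthened or shortened islands in both letters are those of A that overlap an island of B which meets the rule too. Gained islands numbered 9042 in A and 10247 in B (9644 ± 852, SD, n = 2), and 6517 were gained in both letters, which is 20.8% of the 48 h list of A. Of these, 6324 overlapped an island of B that was itself gained. Lost islands numbered 11181 and 11970 (11576 ± 558, SD, n = 2), with 7986 in both letters, or 23.7% of the 0 h list of A, of which 7889 overlapped a lost island of B. There were 1660 and 1864 lengthened islands (821 in both letters) and 1366 and 1176 shortened islands (484 in both letters). The 20212 islands of 48 h present at both times in both letters are called kept below.

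Stretches of gained islands near genes of fat storage are shown first, because they give the sequence that became acetylated. Each is the 200 bases with the most matches to the C/EBP motif (TTGCNNAA, searched on both strands) in 1 of the 5 gained islands that ranked first by score near a gene of the adipocyte lists used below. The name is the nearest gene, positions are on mm9, the strand is the plus strand, and capitals mark the matches.
Abhd5, chr9:122325739-122325938: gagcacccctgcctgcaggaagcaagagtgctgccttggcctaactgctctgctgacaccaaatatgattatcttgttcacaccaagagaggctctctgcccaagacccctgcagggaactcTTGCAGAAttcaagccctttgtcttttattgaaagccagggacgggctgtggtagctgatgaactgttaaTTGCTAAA
Scd1, chr19:44464343-44464542: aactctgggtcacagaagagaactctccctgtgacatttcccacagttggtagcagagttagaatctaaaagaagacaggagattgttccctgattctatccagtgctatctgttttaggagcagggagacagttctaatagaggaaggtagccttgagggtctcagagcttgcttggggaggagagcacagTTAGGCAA
Retn, chr8:3642361-3642560: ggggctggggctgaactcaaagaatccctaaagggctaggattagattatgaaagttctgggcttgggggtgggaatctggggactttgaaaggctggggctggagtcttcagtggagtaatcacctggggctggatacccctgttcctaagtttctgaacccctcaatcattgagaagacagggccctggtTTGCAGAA
Klf15, chr6:90416041-90416240: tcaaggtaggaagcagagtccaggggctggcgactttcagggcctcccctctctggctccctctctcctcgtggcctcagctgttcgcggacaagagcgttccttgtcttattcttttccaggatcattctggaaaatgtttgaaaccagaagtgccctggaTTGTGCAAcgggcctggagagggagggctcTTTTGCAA
Plin1, chr7:86877650-86877849: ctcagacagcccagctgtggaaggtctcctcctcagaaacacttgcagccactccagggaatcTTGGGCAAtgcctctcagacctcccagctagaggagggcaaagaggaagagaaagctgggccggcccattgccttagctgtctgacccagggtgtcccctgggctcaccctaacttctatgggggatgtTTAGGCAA
Abhd5 encodes the coactivator of adipose triglyceride lipase, and its island (10600 bp in A, 7800 bp in B) was intergenic, 49230 bp from the start, with 9 matches in all. The island at Scd1, the stearoyl-CoA desaturase of monounsaturated fat synthesis, was 10600 bp long in A and 11400 bp in B and held 3 matches. The island at Retn, the gene of the adipokine resistin, measured 11400 bp and 8000 bp and held 6. Klf15 encodes a Krüppel-like factor of adipogenesis and Plin1 encodes perilipin 1, the coat protein of the lipid droplet. The islands of both covered a gene start, at 12200 bp (A) and 10600 bp (B) for Klf15 and at 14400 bp and 8200 bp for Plin1, and each held 7 matches. Over whole islands there were 0.567 C/EBP matches per kb in the gained and 0.471 per kb in the kept class. Islands of this length therefore hold several matches in general.

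The same view of 2 of the lost islands with the highest scores within 50 kb of a start shows the 200 bases with the most AP-1 matches (TGAGTCA, both strands).
Grpel1, chr5:36784187-36784386: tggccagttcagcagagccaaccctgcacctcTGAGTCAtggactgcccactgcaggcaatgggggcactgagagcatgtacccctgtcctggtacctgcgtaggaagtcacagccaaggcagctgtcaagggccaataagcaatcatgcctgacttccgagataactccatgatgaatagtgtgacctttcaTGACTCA
Gm10600, chr4:41755201-41755400: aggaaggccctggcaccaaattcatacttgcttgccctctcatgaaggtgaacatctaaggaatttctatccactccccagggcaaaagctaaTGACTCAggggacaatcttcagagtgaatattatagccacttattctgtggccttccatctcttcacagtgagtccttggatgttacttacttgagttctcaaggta
The island nearest to Grpel1 (12600 bp in A, 17800 bp in B) lay 19447 bp from the start and held 5 AP-1 matches. The Gm10600 island covers a predicted gene on chromosome 4, and 37 of 40 words of 32 bases sampled along it occur again on that chromosome. Its loss is therefore uncertain, as reads from copies cannot be told apart, and the same holds for the lost island at Gm10595, where 37 of 39 words occur again. In the other 38 islands chosen by rank, 0 to 5 of 40 words did.

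Most change lay away from promoters. Of the gained islands, 7.95% lay within 1 kb of an annotated start of a protein-coding gene, against 4.24% of the lost, 35.0% of the lengthened, 11.6% of the shortened and 44.1% of the kept islands. The median distance from the centre of an island to the nearest start was 28.8 kb for gained, 53.9 kb for lost, 16.8 kb for lengthened, 52.7 kb for shortened and 8.19 kb for kept islands. The lost and shortened islands were thus the most distal of these classes. Of the lost islands, 33.3% lay over 100 kb from any start, against 21.7% of the gained. Gained islands were in introns (46.6%) about as often as between genes (48.9%), and lost and shortened islands were more often intergenic (59.7% and 63.0%). Gained and lost islands were short, with medians of 2600 bp and 2400 bp, and lengthened islands had a median of 7600 bp.

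H3K4me1, the mark of primed and active enhancers, was read from 1 library at 0 h and 1 at 48 h, so these shares have no replicate check. Its labels name the SETD5 virus, whereas the study shows untransduced cells. Of the gained islands, 37.4% overlapped an H3K4me1 island already at 0 h and 63.2% did at 48 h. The lost islands went the other way, from 60.6% to 33.5%. Lengthened islands carried H3K4me1 at 80.0% and 89.2%, and kept islands at 69.6% and 66.1%. H3K4me1 at neither time was found for 33.1% of the gained and 36.3% of the lost islands. Where at least 50% of an island had to be covered, the gained share was 23.8% at 0 h and 49.4% at 48 h, and the lost share 48.5% and 24.1%. By that measure lengthened islands had 32.8% and 62.5% and kept islands 48.3% and 48.8%, so that at 0 h the order of these classes turned.

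**Figure D1:**
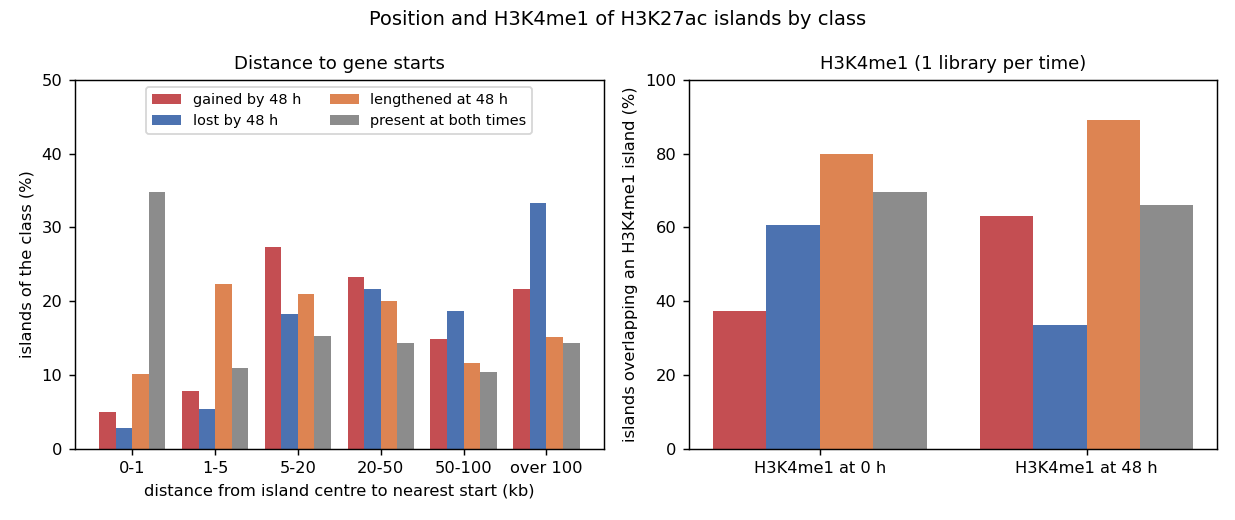
Left, the share of islands (%) in each band of distance (kb) from the island centre to the nearest protein-coding start, for islands gained, lost, lengthened and present at both times. Right, the share overlapping an H3K4me1 island at 0 h and at 48 h (1 library each). Kept islands peak within 1 kb of a start (34.8%), the largest share of lost islands lies beyond 100 kb (33.3%), and H3K4me1 rises from 37.4% to 63.2% of gained islands while it falls from 60.6% to 33.5% of lost islands.

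The 4 H3K27ac libraries of SETD5-overexpressing cells took no part in the rule and gave a separate reading of the same regions, in perturbed cells. The study reports that overexpressed SETD5 lowers this acetylation at part of the enhancers that gain it, and raises it at certain others. Whether gained islands without an island in those cells reflect that effect was not tested. At 0 h, 14.1% (A) and 12.9% (B) of the gained islands overlapped an H3K27ac island of those cells, and at 48 h 69.4% and 72.4% did. For the lost islands the shares were 87.2% and 83.5% at 0 h and 29.2% and 31.6% at 48 h. At least 50% of the length was covered for 15.1% and 27% of the lengthened islands at 0 h and for 76.6% and 81.1% at 48 h. For none of these 3 classes did the times overlap, and the widest gap between A and B was that of the lengthened islands at 0 h. SETD5-V5 islands at 6 h after induction overlapped 52.5% (A) and 40.4% (B) of the gained islands, 37.8% and 27.4% of the lost, 88.2% and 73.3% of the lengthened, and 81.9% and 59.9% of the kept islands. With at least 50% of the length covered, the SETD5-V5 shares were 47.1% (A) and 35.7% (B) of the gained islands. They were 33.5% and 23.5% of the lost, 70.0% and 53.8% of the lengthened, and 77.2% and 52.2% of the kept islands. By that measure lengthened islands lay below kept islands in A and slightly above them in B. The SETD5-V5 libraries come from cells that overexpress the tagged protein.

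To follow genes, the length covered by islands within 50 kb of the first annotated start of each protein-coding gene was compared between the times, in kb and separately in each library. Genes with a mean cover of at least 2 kb were tested with limma on log2(covered kb + 1), 14511 of 22381 in all. The cover was called longer at 48 h for 3147 genes, 21.7% of those tested, and shorter for 1555, or 10.7%, at an adjusted p under 0.05. Both 48 h libraries lay above both 0 h libraries for 42.7% of the genes and below for 22.5%. The calls need both 48 h libraries, since limma called none without 48 h replicate A or without 48 h replicate B, where 4144 and 4492 genes had an unadjusted p under 0.05. Without 0 h replicate A there were 2708 longer and 661 shorter calls, and without 0 h replicate B 1250 and 506. In these fits the lone library is assumed to vary like the other time. The median log2 change was 0.16, and it was -0.05 when the cover was scaled to the same total per library, which gave 2698 longer and 2928 shorter calls (48% longer among calls, against 66.9%). Of the list genes named below, Sik1 and Col6a2 lost their call with scaled cover, and no list gene named here that was called changed its direction. Of those named that did not pass, Cidea, Adrb3, Wnt5a, Hes1, Actb, Vcl, Myh9, Col1a1 and Cd68 were called shorter with scaled cover. Neighbouring genes share islands, so genes are not independent. A change of cover need not lie at the gene itself. For example, Ebf2, Cidea, Adrb3, Tnc and Actg2, named below, had no island within 1 kb of a start in any library. The first annotated start is not always the start in use: Nfib, Runx1 and Pde4b had 0 kb in all 4 libraries although another start of each had an island in all 4. Nearest genes of islands are given within 50 kb, where 13.1% of the 22381 genes were nearest to a gained island in both letters, 11.9% to a lost, 2.41% to a lengthened and 1.02% to a shortened one. An island at a promoter, within 1 kb of any start, was present in both 48 h and neither 0 h library for 454 genes (2.03%) and the reverse for 295 (1.32%). Promoters gained numbered 689 without 0 h replicate A, and promoters lost 470 without 48 h replicate A.

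The lists used here and below were chosen with earlier results of these data known, so their shares are a description and not a test. The transcription factors of adipogenesis had longer H3K27ac cover at 48 h for 11 of 19 tested genes and shorter cover for none. These are 57.9% and 0%, against 21.7% and 10.7% of all tested genes, and the median log2 change was 1.11. Of the 20 genes, 15 were nearest to a gained and 7 to a lengthened island, where 13.1% and 2.41% of all genes were, and 5 were nearest to a lost island, where 11.9% were. Around Pparg, the nuclear receptor that directs adipocyte differentiation, the cover was 32.8 kb (A) and 19.6 kb (B) at 0 h and 56.6 kb and 50.2 kb at 48 h. The groups did not overlap, and the log2 change was 1.04 (SE 0.23, limma adjusted p = 0.0133). Around Cebpa, its partner in late differentiation, it was 17.3 kb and 18.7 kb against 52.7 kb and 46.5 kb (log2 change 1.41, SE 0.13, limma adjusted p = 0.000572). Around Cebpb, an early factor, the cover went from 23.2 kb and 18.8 kb to 53.2 kb and 45.8 kb, so both 48 h libraries lay above both 0 h libraries for all 3 genes. Klf15 rose from 9.57 kb and 7.0 kb to 44.8 kb and 40.4 kb, the largest log2 change of the list (2.24, SE 0.18, limma adjusted p = 0.000397), with 4 gained islands and a gained promoter. Stat5a and Stat5b, neighbours that share islands, rose by 1.54 and 1.61 on the log2 scale. Rxra, the dimer partner of PPARγ, rose from 33.0 kb and 36.8 kb to 83.6 kb and 85.8 kb. Ebf2, Klf9, Nfia and Srebf1 also rose, by 1.11 to 1.46. Cebpd (log2 change 0.31), Klf4 (0.28), Klf5 (0.49), Egr2 (0.40) and Nr3c1, the glucocorticoid receptor (0.22), did not pass, nor did Ebf1, Nr1h3 and Zfp423.

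Genes of the lipid droplet and of lipolysis rose at 9 of 15 and fell at none (median log2 change 1.11), and scaling gave 9 higher and 2 lower. At Plin1, the libraries had 2.66 kb and 2.40 kb at 0 h and 24.9 kb and 23.3 kb at 48 h. Plin1 lies on chromosome 7 from 86866050 to 86877662. In its window the 0 h libraries had a single island, at the far upstream edge, and the 48 h libraries had islands over the start itself. Mgll, monoglyceride lipase (chromosome 6, 88674406 to 88778354), had the largest change of the list, from 7.20 kb and 1.00 kb to 45.0 kb and 33.0 kb (log2 change 3.29, SE 0.59, limma adjusted p = 0.00622), with 5 gained islands and a gained promoter. G0s2, an inhibitor of adipose triglyceride lipase, went from 6.20 kb and 7.80 kb to 40.8 kb and 30.6 kb. Lipe (hormone-sensitive lipase, 1.44), Abhd5 (1.54), Cidec (a droplet fusion protein, 1.23), Lpl (lipoprotein lipase, 1.11) and Plin2 (0.70) rose too. Fitm2 rose by 1.76, but its window holds the islands of its neighbour Hnf4a as well. Cidea, at 13.0 kb and 10.4 kb against 8.60 kb and 8.0 kb, and Adrb3 lay lower at 48 h without passing the test (limma adjusted p = 0.120 and 0.0676), and both passed it with scaled cover (limma adjusted p = 0.0123 and 0.0104). Promoters were gained at 5 of the 15 genes (Plin1, Cidec, Bscl2, Mgll and G0s2), where 2.03% of all genes gained one.

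Genes of triglyceride and fatty acid synthesis rose at 9 of 14, with none lower (64.3% and 0%, against 21.7% and 10.7% of all tested genes). The median was 0.87. Scd1 (chromosome 19, 44468941 to 44482199) went from 3.40 kb and 4.0 kb to 38.6 kb and 37.8 kb (log2 change 3.06, SE 0.16, limma adjusted p = 0.000187). At 0 h it had an island over the start and, in B alone, a second one, and at 48 h islands of both libraries lay on both sides of the start. It was nearest to 5 gained islands. Lpin1, the phosphatidate phosphatase lipin 1, went from 0.400 kb and 1.20 kb to 17.4 kb and 17.8 kb. The island over one of its starts is the second most lengthened of those within 50 kb of a start, from 400 bp to 8200 bp in A and from 1000 bp to 6000 bp in B. Acsl1, which activates fatty acids with coenzyme A, went from 5.80 kb and 3.80 kb to 47.8 kb and 37.0 kb, and Agpat2, Gpam, Dgat2, Fasn, Dgat1 and Scd2 rose by 0.80 to 1.70. Acaca (0.65), Acly (0.60), Elovl6 (-0.26), Me1 (-0.56) and Pnpla3 (0.65) did not pass, and Pck1 was at 0 kb in all 4 libraries.

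Of the genes of fatty acid uptake and glycerol handling, 5 of 8 rose and none fell (62.5% and 0%, against 21.7% and 10.7% of all tested genes). The median was 1.43. With a replicate block in the fit 4 rose, as Fabp5 lost its call (limma adjusted p = 0.0594, against 0.0394 without the block). Fabp4, the fatty acid binding protein of adipocytes, had 0 kb in A and 1.02 kb in B at 0 h, and 25.4 kb and 19.6 kb at 48 h, with its promoter gained. Cd36, the fatty acid translocase, was at 0 kb in both 0 h libraries and at 9.62 kb and 4.80 kb at 48 h. Slc27a1, a fatty acid transporter, overlapped between the times at 33.6 kb and 24.0 kb against 30.4 kb and 30.0 kb, and Aqp7 and Gyk were under the minimum for the test.

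Adipokine genes rose at 7 of 9 and fell at none (77.8% and 0%, against 21.7% and 10.7% of all tested genes). The median was 0.72. Retn showed the largest change, from 2.40 kb and 3.20 kb to 31.4 kb and 24.6 kb (log2 change 2.93, SE 0.21, limma adjusted p = 0.000309). Adipoq, adiponectin, went from 5.0 kb and 4.60 kb to 16.6 kb and 11.4 kb, and Cfd, adipsin, from 19.0 kb and 19.2 kb to 32.6 kb and 31.6 kb. The promoters of these 3 genes were among those gained. Nampt, Lep and Angptl4 were also among those that rose, and Apln and Rarres2 did not pass. Of the insulin signalling and glucose transport genes, 6 of 12 rose and 1 fell (median 0.74), or 6 and 2 with scaled cover. The insulin receptor gene Insr, Irs2, Pik3r1 and Pde3b were among those that rose, and so was Slc2a4, the insulin-responsive glucose transporter GLUT4, from 21.3 kb in both libraries to 41.3 kb and 31.1 kb. Slc2a1, the basal transporter GLUT1, fell from 30.0 kb and 25.8 kb to 18.8 kb and 19.8 kb.

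**Figure D2:**
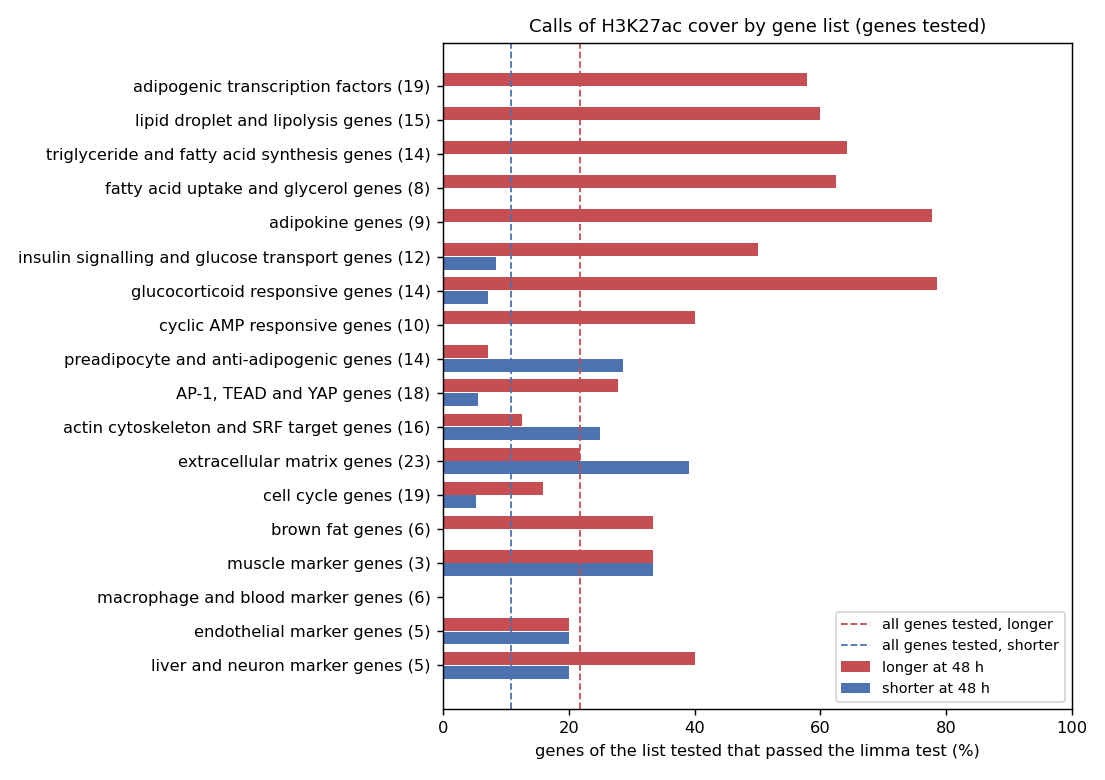
Share (%) of the tested genes of each list (number tested in parentheses) whose H3K27ac cover within 50 kb of the start was longer or shorter at 48 h by limma, with the shares among all tested genes as dashed lines (21.7% and 10.7%). The 5 adipocyte lists, from transcription factors to adipokines, hold 57.9% to 77.8% longer calls and no shorter calls without scaling (2 shorter, Cidea and Adrb3, with scaled cover), and the extracellular matrix list holds the largest share of shorter calls among lists of more than 3 tested genes, 39.1%, without scaling. With scaled cover the actin list holds more (10 of 16, against 12 of 23 for the matrix list). The lists were chosen with earlier results of these data known, so the shares are a description and not a test.

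The agents of MDI have their own target genes. Among the glucocorticoid responsive genes, 11 of 14 rose and 1 fell (78.6% and 7.14%, against 21.7% and 10.7% of all tested genes). The median log2 change was 1.43. Fkbp5, a chaperone that glucocorticoids induce strongly (chromosome 17, 28536040 to 28654469), had 16.6 kb in both 0 h libraries and 58.9 kb and 62.1 kb at 48 h (log2 change 1.81, SE 0.12, limma adjusted p = 0.000276). It was nearest to 3 gained and 4 lengthened islands, and a single broad island spread over its start in each 48 h library, where neither 0 h library had an island over that start. Another of its annotated starts had an island in all 4 libraries. Zbtb16, the zinc finger factor PLZF, went from 1.20 kb and 0 kb to 21.8 kb and 20.8 kb, and Errfi1, an inhibitor of the EGF receptor, from 6.40 kb and 5.40 kb to 44.2 kb and 44.0 kb. Tsc22d3, the glucocorticoid-induced leucine zipper GILZ, rose by 1.92 and lay nearest to the third most lengthened island of those within 50 kb of a start, 1800 bp to 19000 bp in A and 1400 bp to 19800 bp in B. Pdk4 and the metallothionein neighbours Mt1 and Mt2 rose by 1.75 to 1.80. Sgk1 is the member that fell, from 15.8 kb and 13.4 kb to 10.0 kb and 9.0 kb, with 2 gained and 2 lost islands. Per1 (0.24) and Cebpd (0.31) did not pass. Of the cyclic AMP responsive genes, 4 of 10 rose and none fell (median 0.55). These were Rgs2, Nr4a1, Fosb and Sik1, with Rgs2 from 6.60 kb and 4.40 kb to 26.7 kb and 25.5 kb. Crem (0.52), Nr4a2 (0.56), Nr4a3 (0.74) and Ppargc1a (-0.01) did not pass.

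Some genes were nearest to many gained islands. Plcb1, which encodes phospholipase C beta 1, had 13. Pde4d and Pde4b, phosphodiesterases that hydrolyse cyclic AMP, had 11 and 9, although neither had a call of cover (the log2 change of Pde4d was 0.55, which did not pass, and the window of Pde4b was empty). Fabp12, which lies beside Fabp4, the forkhead gene Foxp1 and the salt-inducible kinase gene Sik3 had 7 each. A further 11 genes had 6, of which Akap2, Chn2, Eri3 and Itsn1 come first by name. Such genes were long, with a median length of 237 kb over these 10 against 15.4 kb over all genes. Over all genes, 271 (1.21%) were nearest to 3 or more gained islands and 260 (1.16%) to 3 or more lost ones, and 314 were nearest to both a gained and a lengthened island.

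**Figure D3:**
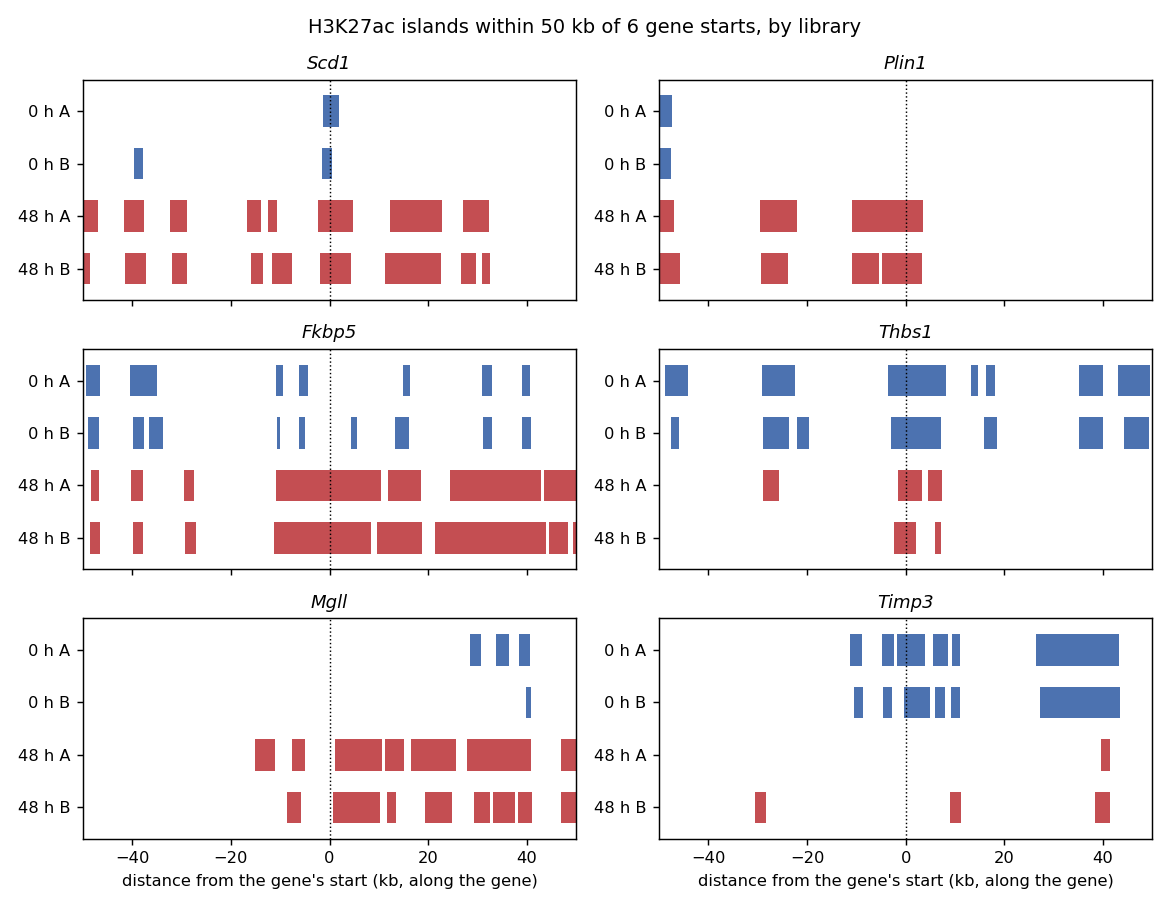
H3K27ac islands (bars) in the 4 libraries within 50 kb of the first annotated start (dotted line) of 6 genes, by distance in kb along the gene. At Scd1, Fkbp5, Mgll and Plin1 both 48 h libraries (red) hold islands that are absent or short in both 0 h libraries (blue), and at Thbs1 and Timp3 most 0 h islands are shorter or absent at 48 h (a Timp3 island of B, 9.1 to 10.9 kb from the start at 0 h, remains).

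Genes of the preadipocyte state moved in both directions. In the list of preadipocyte and anti-adipogenic genes, 4 of 14 fell and 1 rose (28.6% and 7.14%, against 10.7% and 21.7% of all tested genes). The median was -0.01, or -0.20 with scaled cover, where 6 were lower and 1 higher. Dlk1, the preadipocyte factor Pref-1, fell from 37.6 kb and 28.2 kb to 14.6 kb and 13.4 kb (log2 change -1.16, SE 0.18, limma adjusted p = 0.00327). Gata2, whose product holds cells at the preadipocyte stage, fell from 13.4 kb and 8.60 kb to 3.6 kb and 2.80 kb. The osteoblast factor Runx2 fell from 7.40 kb and 7.80 kb to 2.20 kb and 1.60 kb, and Twist1 from 12.8 kb and 14.2 kb to 4.60 kb and 4.2 kb. Tgfb1 rose, from 10.6 kb and 10.0 kb to 17.4 kb and 19.8 kb. Gata3 (0.10), Wnt5a (-0.46), Hes1 (-0.44) and Prrx1 (0.20) did not pass.

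The extracellular matrix list fell at 9 of 23 genes and rose at 5 (39.1% and 21.7%, against 10.7% and 21.7% of all tested genes). Of the 23 genes, 13 were nearest to a lost island, where 11.9% of all genes were. The median was -0.23, or -0.44 scaled, where 4 were higher and 12 lower. Timp3, a tissue inhibitor of metalloproteinases (chromosome 10, 85763117 to 85812251), fell from 32.2 kb and 29.0 kb to 1.80 kb and 7.40 kb (log2 change -2.70, SE 0.46, limma adjusted p = 0.00517), with 4 lost islands and a lost promoter. Thbs1, thrombospondin 1 (chromosome 2, 117937612 to 117952869), fell from 37.8 kb and 32.2 kb to 11.0 kb and 5.60 kb. Col1a2 fell from 56.4 kb and 48.2 kb to 19.6 kb and 22.0 kb, and Col3a1, Thbs2, Fbn1 (fibrillin 1), Lox (lysyl oxidase), Tnc (tenascin C) and Timp1 fell by 0.69 to 1.26 on the log2 scale. The 5 genes that rose, a share equal to that of all tested genes, were the basement membrane collagens Col4a1 and Col4a2, which share a window, and Col6a1, Col6a2 and Col6a3. At Col4a1 the cover went from 44.6 kb and 30.0 kb to 90.4 kb in both libraries, and at Col6a3 from 10.4 kb and 8.60 kb to 39.5 kb and 24.7 kb. Col1a1 (-0.17), Fn1 (0.17), Sparc (0.08) and Mmp2 (0.04) did not pass.

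Of the actin cytoskeleton and SRF target genes, 4 of 16 fell and 2 rose, where 10.7% and 21.7% of all tested genes did. The median was -0.30, or -0.51 scaled, and scaling gave 10 lower. Acta2, smooth muscle actin, fell from 25.8 kb and 17.0 kb to 4.40 kb and 5.0 kb (log2 change -1.95, SE 0.23, limma adjusted p = 0.00139). Tpm1, tropomyosin 1, fell from 38.6 kb and 37.6 kb to 11.6 kb and 13.2 kb, Myl9, a myosin light chain, from 9.85 kb and 9.04 kb to 2.04 kb in both, and Zyx, zyxin, from 26 kb and 22.4 kb to 13.0 kb and 11.2 kb. Actg2 and Tagln rose, by 1.75 and 1.01. Actb (-0.24) and Myh9 (-0.14) did not pass. Among the AP-1, TEAD and YAP genes, 5 of 18 rose and 1 fell (27.8% and 5.56%, against 21.7% and 10.7% of all tested genes), with a median of 0.09, or -0.13 scaled. Scaling gave 5 higher and 4 lower. Tead4 rose from 11.0 kb and 12.6 kb to 40.2 kb and 34.2 kb and Tead1 from 25.4 kb and 23.6 kb to 44.6 kb and 44.4 kb, while the YAP target Ankrd1 fell from 18.3 kb and 16.0 kb to 5.0 kb and 3.20 kb. Fosl1, Fosb and Cyr61 rose, and Jun, Junb, Fos, Yap1 and Wwtr1 did not pass. Of the cell cycle genes, 3 of 19 rose and 1 fell (15.8% and 5.26%, both under the shares of all tested genes), with a median of 0.13, or -0.08 scaled. Scaling gave 3 higher and 5 lower. Cdc20, the activator of the anaphase-promoting complex, went from 6.60 kb and 7.0 kb to 15.8 kb in both libraries, Top2a and Myc rose, and the cyclin E1 gene Ccne1 fell.

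The genes nearest to the most lost islands were also long, with a median of 293 kb. Sorbs2, an adaptor of actin and focal adhesions, had 15, Palld, the actin-bundling protein palladin, had 11, and Limch1, which binds myosin II, had 7. Col14a1, a fibril-associated collagen, and Adamtsl3, a matrix glycoprotein, had 8 each. Ccbe1 and Nckap5 had 9 and Sbf2 had 8. Limch1 shared its number with Fibin, Nipal2, Phldb2, Synpo2 and Tnfsf15, so 6 genes tied. Sorbs2 was also nearest to a lost island of 12000 bp (A) and 11400 bp (B) among the 10 with the highest scores within 50 kb of a start.

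**Figure D4:**
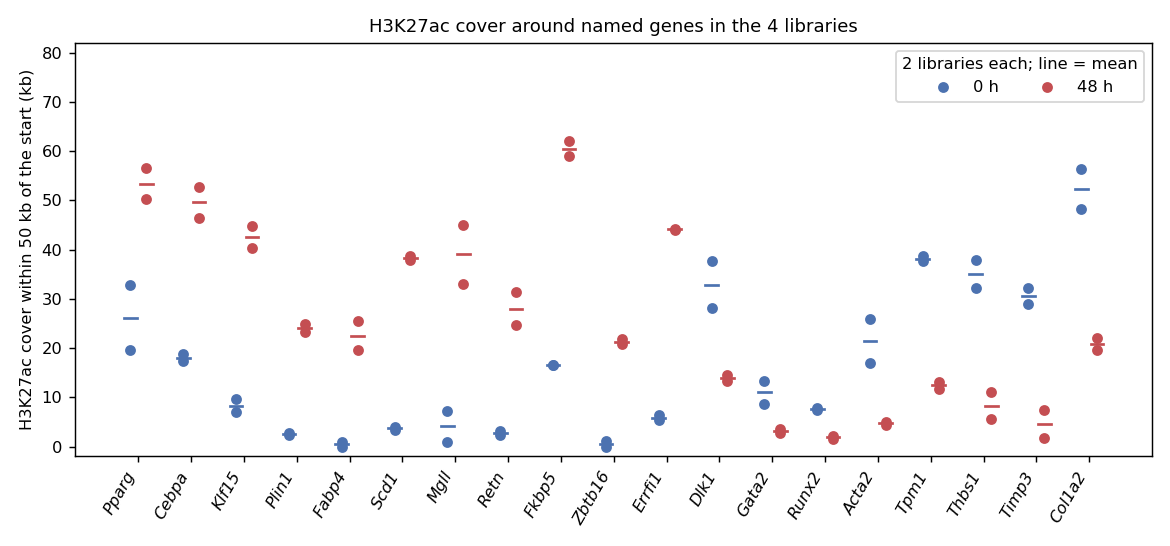
H3K27ac cover (kb) within 50 kb of the first annotated start of 19 named genes, with 1 point per library (blue 0 h, red 48 h) and a line at the mean of 2. From Pparg to Errfi1 both red points lie above both blue points, and from Dlk1 to Col1a2 both lie below.

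Genes ranked by the size of the change alone were mostly ones whose window held no island at 1 time, so that their log2 change depends on the 1 kb added and no fold is given. Gm4955, Il15ra, Klra7, Gm5121, Fam110c, Klra6, Sval2, Krt35 and Kif7 were at 0 kb in both 0 h libraries, and Bcl2l10 at 0 kb and 0.2 kb. At 48 h these 10 had 21.8 kb to 48.6 kb in A and 19.0 kb to 39.6 kb in B. Il15ra, the interleukin 15 receptor alpha gene, had 36.6 kb in both 48 h libraries, 5 gained islands and a gained promoter. Kif7 starts 18.6 kb from Plin1, and the gained island there is nearest to Plin1, so the windows of Kif7 and Plin1 share islands. In the other direction, Sorcs2, Phldb2, Fam135b, Samd3, 6030452D12Rik, Tnfsf15, D630042P16Rik and Colec10 were at 0 kb in both 48 h libraries, after 16.0 kb to 31.0 kb in A and 13.0 kb to 23.0 kb in B at 0 h. Phldb2 still had an island at another of its starts in all 4 libraries. Col14a1, the collagen named above, went from 26.4 kb and 22.2 kb to 0 kb and 1.60 kb with its promoter lost, and Gm6543 from 35.9 kb and 30.7 kb to 1.60 kb and 0.800 kb.

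Among gained islands within 50 kb of a start, the highest score ranks belonged to one near Nt5m, chromosome 11 from 59692601 to 59723600, which was 31000 bp long in A and 26000 bp in B where the 0 h lists had none. It was intergenic, 31026 bp from the start, and 0.492% of the islands of A and 0.432% of B had a higher score. The islands near 1700088E04Rik, Rhod, Ppp2r1b, Il15ra, Spnb5, Abhd5, Rasd1, Xbp1 and Foxp1 followed, at 9000 bp to 22800 bp in A and 6400 bp to 23400 bp in B. Rasd1, the dexamethasone-induced Ras protein, had a gained island over a start, and Xbp1 is a factor of the unfolded protein response. At Rhod the 48 h island of B extends over 5200 bp of 0 h islands of B that the A island does not reach. All 10 overlapped H3K4me1 at 48 h, 10 overlapped SETD5-V5 at 6 h in replicate A and 7 in replicate B, and 8 had H3K4me1 at 0 h. Over all gained islands these shares were 63.2%, 52.5%, 40.4% and 37.4%. Those islands had a median of 2600 bp, and a longer island is more easily overlapped. Of the 10 highest lost islands within 50 kb of a start, others lay near Fam101a, Cdh3, Sorbs2, Tfpi, Tlr3 and Fam65c. All 10 lost islands overlapped H3K4me1 at 0 h, and all but the one near D630042P16Rik also did at 48 h. Over all lost islands these shares were 60.6% and 33.5%.

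Among islands within 50 kb of a start, the most lengthened lay over a start of Adipor2, an adiponectin receptor, on chromosome 6 from 119331001 to 119382400. It measured 3000 bp in A and 1400 bp in B at 0 h, and 51400 bp and 20800 bp at 48 h. The next were those at Lpin1 and Tsc22d3 given above, and at Ltbp2, Med9, Rxra, Hsd11b1, 2010003K11Rik, Gpcpd1 and Obfc1, with mean ratios of 8.35 to 10.9. Hsd11b1 encodes the enzyme that regenerates active glucocorticoid, and its island went from 400 bp and 1000 bp to 6600 bp and 3400 bp. At Rxra the island went from 2200 bp and 1600 bp to 20000 bp and 17400 bp. The most shortened of these was in an intron near Wdr25, from 15800 bp and 14400 bp at 0 h to 1400 bp and 1800 bp. Those near Timp3 (17000 bp and 16200 bp to 1800 bp and 3000 bp), Ogn, the matrix proteoglycan osteoglycin (14800 bp and 9600 bp to 1400 bp and 2400 bp), Chst2, 5031434C07Rik, Egfl6, Lmcd1, Pop1, Gm11627 and Nkd1 followed. At the limit of the rule, the ratios of lengthened islands of A begin at 2.000, and the highest ratio left out among islands at least 2000 bp longer was 1.987.

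The sequence of the islands differed between the classes. The glucocorticoid receptor palindrome (GNACA and TGTNC, 3 bases apart) was in the central 1000 bp of 4.74% of the gained islands, against 1.45% of the lost and 1.96% of the kept islands. Windows of the same length 10 kb to either side held it at 1.74% beside gained, 1.76% beside lost and 1.80% beside kept islands. The share in gained islands was thus above that in their flanks, and the share in lost islands was not. The C/EBP motif was in 47.5% of gained, 42.5% of lost and 36.9% of kept islands (flanks 37.0%, 38.1% and 34.6%), and the AP-1 motif in 27.5%, 21.6% and 20.3% (flanks 17.0%, 16.3% and 16.3%). AP-1 matches were thus more frequent in gained than in lost islands. The TEAD motif (GGAATG) went the other way, with 42.5% of gained, 53.8% of lost and 43.7% of kept islands (flanks 43.4%, 43.7% and 42.7%). RUNX (TGTGGTT) was in 23.5% of gained and 24.6% of lost islands, the cyclic AMP response element (CRE, TGACGTCA) in 0.967% and 0.476%, and the EBF palindrome (TCCC and GGGA, 2 bases apart) in 3.15% and 2.35%. CRE was most frequent in kept islands (1.87%), whose windows had the highest GC content, 50.1% against 44.9% in gained and 43.2% in lost islands. Perfect PPAR-RXR direct repeats (AGGTCA repeated after 1 base, 16 of 6517 gained and 8 of 7986 lost windows) and NF1 palindromes (TTGGC and GCCAA, 5 bases apart, 10 and 5 windows) were too few to compare. A match is a description of the letters and not a site of binding, and shares were not tested, as islands are not replicates.

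**Figure D5:**
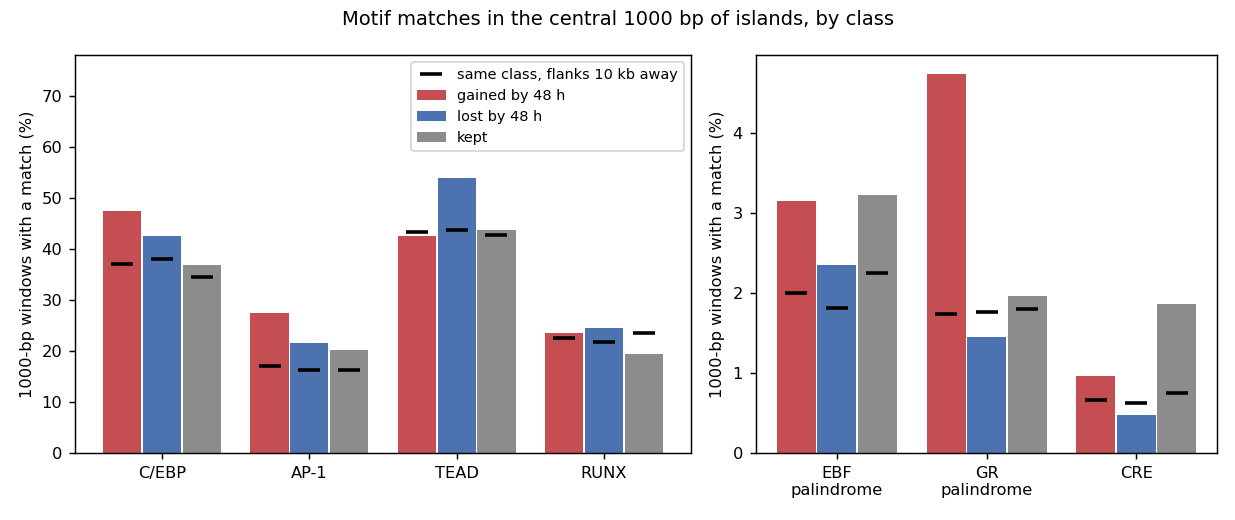
Share (%) of central 1000 bp windows with at least 1 exact match on either strand for islands gained, lost and kept, with black dashes at the share in windows 10 kb to either side of the same islands. The glucocorticoid receptor (GR) palindrome stands out in gained islands (4.74% against 1.74% in their flanks) and TEAD in lost islands (53.8% against 43.7%). The axes of the panels differ in scale.

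Stretches of 60 bases show these motifs at genes of the lists and were chosen after the shares were seen. Of the 22 gained islands nearest to glucocorticoid responsive genes, 2 held the receptor palindrome (capitals) somewhere along their length, at Errfi1 and at Sgk1, where 9.62% of all gained islands did.
Errfi1, chr4:150193652-150193711: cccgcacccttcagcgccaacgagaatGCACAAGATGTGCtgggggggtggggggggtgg
Sgk1, chr10:21672471-21672530: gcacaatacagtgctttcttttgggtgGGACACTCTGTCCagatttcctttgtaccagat
The Errfi1 island (3000 bp in A, 3200 bp in B) lies 33028 bp from the start. The Sgk1 island (2000 bp and 800 bp) is among the gained ones of the gene whose cover fell. Of the 45 lost islands nearest to preadipocyte, AP-1 and TEAD, actin or matrix genes, 38 held a TEAD match somewhere along their length, as did 81.9% of all lost islands, and the 4 of highest rank from different genes are shown.
Tpm1, chr9:66936260-66936319: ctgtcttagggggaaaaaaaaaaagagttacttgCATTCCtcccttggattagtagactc
Timp3, chr10:85764275-85764334: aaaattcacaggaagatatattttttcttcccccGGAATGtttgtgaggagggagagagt
Thbs1, chr2:117980893-117980952: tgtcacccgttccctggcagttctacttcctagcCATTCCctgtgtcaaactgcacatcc
Vcl, chr14:21702918-21702977: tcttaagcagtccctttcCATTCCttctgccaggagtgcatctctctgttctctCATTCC
The Timp3 island, 5600 bp in A and 5200 bp in B, covers a start of the gene and held 2 matches. Those near Tpm1 (5 matches), Thbs1 (7) and Vcl, the focal adhesion protein vinculin (5), lie 38588 bp, 42989 bp and 42655 bp from a start.

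Markers of other cell types were checked in the same way, 10 genes a list, with the cover summed over each list. The muscle list summed to 28.0 kb and 23.0 kb at 0 h and 27.2 kb and 23.2 kb at 48 h. Myod1 was at 0 kb in all 4 libraries and Myog at 2.40 kb in 48 h A alone. Of 3 muscle genes tested, Acta1 rose and Des, the most covered, fell from 19.0 kb and 14.6 kb to 9.80 kb and 10.2 kb. The macrophage and blood list summed to 102 kb and 90.6 kb at 0 h and 94.8 kb and 84.1 kb at 48 h. Ptprc and Emr1 were at 0 kb in all 4 libraries, and of 6 genes tested limma called none, or 3 shorter with scaled cover. The most covered was Cd68, at 29.1 kb and 23.1 kb at 0 h and 20.8 kb and 20.5 kb at 48 h. The endothelial list summed to 42.1 kb and 37.2 kb at 0 h and 41.4 kb and 36.2 kb at 48 h and was most covered at Pecam1. Kdr, Tek and Sox17 were at 0 kb in all 4, and of 5 tested Emcn rose and Vwf fell. The liver and neuron list summed to 50.6 kb and 50.8 kb at 0 h and 57.4 kb and 51.4 kb at 48 h and was most covered at Snap25. Ttr, Rbfox3 and Neurod1 were at 0 kb in all 4, and of 5 tested Apoa1 and Hnf4a rose and Syt1 fell. No muscle, endothelial, liver or neuron marker had an island at a promoter in all 4 libraries, and Cd14 and Lyz2 of the macrophage list did. Of the brown fat genes, 2 of 6 rose and none fell (33.3% and 0%, against 21.7% and 10.7% of all tested genes). The median was 0.10, or -0.11 scaled, where Cidea was lower. Dio2, Prdm16 and Zic1 were at 0 kb in all 4 libraries. Ucp1, the uncoupling protein of brown adipocytes, rose from 1.80 kb and 1.00 kb to 9.40 kb and 7.0 kb with no island at its promoter in any library, and Elovl3 rose from 1.80 kb in both to 9.80 kb and 8.0 kb. These windows reach into neighbouring genes, so a covered window does not place an island at the marker itself. In a population, more cells with the mark and more mark per cell cannot be told apart.

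Fewer islands were listed in both 48 h libraries than in either 0 h library, while the covered length and the number of long islands overlapped between the times. Within each letter the number of islands was lower and the number of long islands higher at 48 h. Covered length was 121.4 Mb (A) and 103.4 Mb (B) at 0 h and 121.5 Mb and 110.9 Mb at 48 h, so the gap between A and B exceeded the gap between the times. The mean number of islands was 34582 ± 1242 (SD, n = 2) at 0 h and 32212 ± 1300 (SD, n = 2) at 48 h, and an exact two-sided permutation test gave p = 0.333, the smallest value that 2 against 2 libraries allow. Islands of 10 kb or longer numbered 1222 and 749 at 0 h and 1493 and 1188 at 48 h, with means of 985.5 and 1340. Where islands of both times overlapped, the median ratio of lengths was 1.00 in both letters, with 45.8% (A) and 48.5% (B) longer at 48 h and 47.4% and 43.9% shorter.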

How the data were processed

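3T3-L1 cells with empty vector were profiled by H3K27ac ChIP-seq in 2 libraries per time. The authors aligned reads to the mm9 genome by ELAND or Bowtie2, and found islands in each library with SICER or SICER2 (windows of 200 bp). The deposited lists give chromosome, start, end and a score, the authors' own value from the caller, which was used only to rank islands within a list.

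Islands sharing 1 bp or more counted as overlapping, in Python 3.11.15 (bedtools 2.31.1 as a check) and placed on the GENCODE annotation and sequence of mm9. Cebpd, filed there as a pseudogene, was added to the protein-coding genes. Cover was tested with limma 3.58.1 in R 4.3.3 (lmFit, eBayes with trend and robust, Benjamini-Hochberg). Scripts were tested on simulated data. A few list genes and 1 sequence are counted or ranked but not reported here. Members and lists were chosen with earlier results of these data known. Named islands and genes are the 10 first by score rank or length ratio (within 50 kb of a start) or log2 change (genes at least 100 kb apart) and by number of islands (ties by name), and list genes that were called, lie nearest to a changed island or define a list. The two-sided test of library values is an exact permutation test. Alternatives were other windows, overlaps, ratios, added values, filters, scalings, equal numbers of islands, merged islands, crossed letters, a replicate block and each library left out.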

Additional observations from a re-analysis of the deposited data

How the results depend on the processing

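Directions of the gained against lost comparison of motifs held in the central 500 bp and per kb of whole islands for the 7 motifs compared. Restricting lists to islands above their median score left 4838 gained islands (mean of letters; 3555 in both letters) and 5794 lost (4438). A ratio of at least 1.5 gave 1353 lengthened and 853 shortened islands in both letters, and a ratio of at least 3 gave 666.5 (249 in both) and 485.5 (134 in both). Crossing the letters gave 9722 gained and 11681 lost islands (no replicate block). With each library left out, promoters gained ranged from 528 to 689 and lost from 359 to 470. A window of 20 kb gave 1737 longer and 762 shorter calls of cover, and scaling to equal totals gave 2928 shorter calls, which include all 1555 found without it. Leaving out a library gave 0 to 2708 longer and 0 to 661 shorter calls, and the 0 came from either 48 h library. The log2 changes of the 20 genes ranked by size kept their sign in all 237 values that the settings gave for them and lost the call in 40, all 40 with a 48 h library left out. With the replicate block, 3637 genes were longer and 1754 shorter. Of the list genes named that had no call, Ebf1, Nr1h3, Nr4a3 and Pecam1 were longer and Hes1 and Vcl shorter, while Fabp5 lost its call. Nothing in the labels pairs the letters. The deviation of A from B at 0 h correlated with that at 48 h at r = 0.075 over 14511 genes, although A had fewer islands, more cover and more long islands than B at both times. The lists hold islands over a threshold and no counts, so a weak region that a deeper library would list cannot be told from an absent one.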

Other observations

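The X chromosome and chromosome 18 lost more islands than the genome. On the X chromosome, 31.1% of the 0 h islands of A were lost in both letters and 17.6% of the 48 h islands were gained, against 23.7% and 20.8% over all chromosomes. Its islands numbered 1111 (A) and 1219 (B) at 0 h and 886 and 942 at 48 h. On chromosome 18, 31.4% of the islands were lost and 21.3% gained. Chromosomes 19 and 11 had the smallest lost shares, 17.2% and 17.9%, and chromosome 12 the largest gained share, 25.6%. These shares were not tested.

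At 547 genes, 2.44% of all, islands nearest to the gene were both gained and lost in both letters. Among the list genes, Nfia had 5 gained and 1 lost, Dusp1 2 and 1, Zfp423 2 and 2, Vcl 3 and 2, and Col6a3 2 and 2. The cover of Nfia, Dusp1 and Col6a3 rose, and that of Zfp423 (log2 change 0.10) and Vcl (-0.63) did not pass the limma test without scaling or block (Vcl passed with either).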
